A study of Bubalus bubalis with 36 samples.

Results

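The nuclear-coded subunits of the mitochondrial respiratory chain were followed across 6 adipose tissue (AT) depots of the river buffalo. The members were taken by symbol (the NDUFA, NDUFB, NDUFC, NDUFS and NDUFV series, SDHA to SDHD, UQCR, CYC1, COX4 to COX8, and ATP5), with the gene model of the highest average kept where a symbol had several. This gave 66 of the 14523 symbols in the expression table, with 32 in complex I, 3 in complex II, 7 in complex III, 11 in complex IV and 13 in complex V. Their RNA levels were read from 36 sequenced libraries of 6 animals, with 1 library of each depot from each animal. The animals were 3 males and 3 females of 19 to 21 months. By the study's methods they had mostly coarse feed, with added concentrate, in the months before slaughter. Perirenal (PRAT), omental (OAT) and pericardial (PCAT) AT were the visceral depots (VATs), and sternum subcutaneous (SSAT), back subcutaneous (BSAT) and inguinal (IAT) AT the subcutaneous ones (SATs), with 6 libraries in each depot. No animal was treated or genetically altered, and the labels give the males as Murrah and the females as Nili-Ravi, so that by the labels sex and breed cannot be told apart, whereas the study's table of animals gives Murrah for all of them. The unit is FPKM, fragments scaled by transcript length and by the number of mapped fragments. The study reports its clean reads, but the depth of the libraries was not used here.

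The respiratory chain passes electrons from NADH (complex I) and succinate (complex II) over ubiquinone, complex III and cytochrome c to oxygen at complex IV, and the proton gradient that results drives ATP synthesis by complex V. White ATs store triglyceride and have few mitochondria beside brown fat, where uncoupling protein 1 (UCP1) lets the gradient run down as heat. Perirenal fat is a site of brown fat in newborn ruminants that later turns white.

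The members differed widely in level. Of the 66, 33 averaged at least 10 FPKM and 8 averaged under 1 FPKM. The largest averages were 249 FPKM for UQCRC2, 228 FPKM for ATP5PB, the b subunit in the stalk of the ATP synthase, and 208 FPKM for ATP5F1A, its alpha subunit. The UQCRC2 gene model used here is uncertain, as described below. Several subunits of the same complexes were far lower, such as NDUFA2 at 0.27 FPKM and COX5A at 3.56 FPKM. COX8A was listed at 0 in every library and COX6B2, a testis isoform, averaged 0.0094 FPKM, so 64 members passed the filter of a mean above 0.1 FPKM. The COX8A gene model lies between TMEM251 and UBR7, and its symbol was not checked. Its 0 is therefore not read as absence of COX8A RNA.

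Several libraries held marked amounts of RNA of other cell types. PRAT 1, the perirenal library of animal 1, held kidney tubule markers with a summed level of 2937 FPKM, against 23.6 to 37.5 FPKM in the other PRAT libraries, and its LRP2 and CUBN, the paired endocytic receptors of the proximal tubule, reached 1572 and 1200 FPKM. Lymphocyte markers summed to 498 to 2202 FPKM in OAT 1, OAT 4, PRAT 2, PRAT 4, IAT 4 and PCAT 2 and to 8.93 to 211 FPKM in the remaining libraries, and adipocyte markers were at 481 FPKM in OAT 1, 501 FPKM in PRAT 4 and 853 FPKM in OAT 4. BSAT 1 held skeletal muscle markers at 2015 FPKM. Mesothelial markers summed to 2346 FPKM in PCAT 4, 1610 FPKM in PCAT 2 and 503 FPKM in OAT 1. The kidney tubule list summed to 688 FPKM in PCAT 2 and 614 FPKM in PCAT 4. Fibroblast markers, mostly collagens, took a median share of the FPKM of 0.55% in PRAT libraries against 5.54% elsewhere, and 9.28% in SATs against 1.72% in VATs. In such bulk samples, fewer cells of a type and less RNA per cell cannot be told apart.

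The first comparison asked how the PRAT depot stood against the mean of the other 5 depots. Of the 64 members tested, 42 were higher in PRAT and 0 were lower, while 7.6% of all 17688 gene models tested were higher (limma on log2(FPKM + 0.1), adjusted p under 0.05 over all gene models). At an unadjusted p under 0.05 there were 54 members, all with higher values in PRAT, or 84.4% against 26.5% of all gene models in either direction. All 3 members of complex II rose, and so did 12 of 13 in complex V, 19 of 32 in complex I, 5 of 9 in complex IV and 3 of 7 in complex III. The median log2 fold change over the members was 0.45, against 0.11 over all gene models, and it was 0.59 in complex II, 0.54 in complex V, 0.42 in complex I, 0.41 in complex IV and 0.35 in complex III. PRAT had the highest mean of the 6 depots for 59 of the 64 members, OAT was next in 53 of these 59, and in 44 members PRAT lay above the mean of the other depots in all 6 animals. The share was 27 of 33 among members averaging at least 10 FPKM, 12 of 25 from 1 to under 10 FPKM and 3 of 6 under 1 FPKM.

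**Figure D1:**
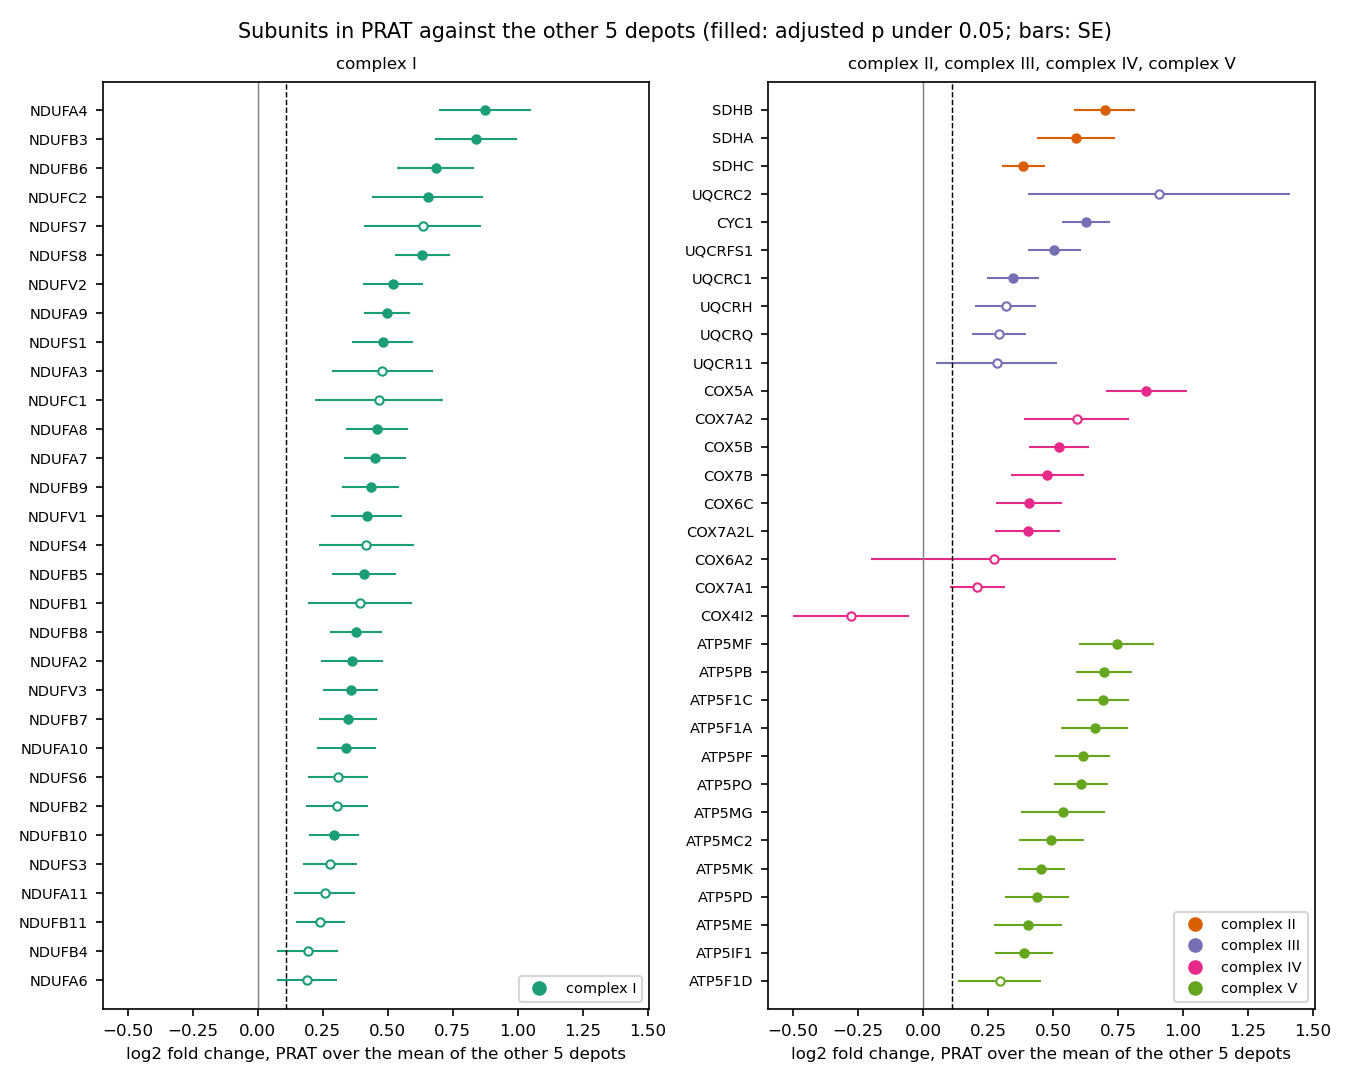
Log2 fold change of 63 of the 64 tested subunits in PRAT over the mean of the other 5 depots (x axis), with its SE, by complex. The 42 filled points passed an adjusted p of 0.05, the dashed line is the median of all gene models at 0.11, and COX4I2 is the only point left of 0.

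The count depended on single libraries and on the scaling. It was 24 without PRAT 1 and 23 without PRAT 3, and leaving out each of the other 34 libraries gave at most 44, while quantile normalization and median centring each gave 21 and moved the share of higher calls among all calls in PRAT to 42.4% and 36.8%, against 69.8% in the fit described. With a score of the fibroblast markers as a covariate, limma called 0 members at an adjusted p of 0.05 and 34 at an unadjusted p under 0.05, the median over the members was 0.33, and 0.0452% of all gene models were higher. That score moves with the depots, as 5 of the 6 tested fibroblast markers were lower in PRAT, and its part in the rise of the subunits was not tested further.

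Complex I carries electrons from NADH to ubiquinone through a matrix arm and a membrane arm. Its largest rises among members averaging at least 1 FPKM were in NDUFA4, NDUFB3 and NDUFC2. NDUFA4, named for complex I but now known as a subunit of complex IV, had 18.1, 23.7 and 30.0 FPKM (lowest, median and highest) in PRAT, against 6.73, 12.9 and 24.5 FPKM elsewhere, a log2 fold change of 0.87 ± 0.18 (SE, adjusted p = 0.00219). PRAT was the highest depot for NDUFA4 in all 6 animals, although 3 libraries of other depots, led by OAT 1, lay above the lowest PRAT library. NDUFB3, an accessory subunit of the membrane arm, had 4.14, 7.09 and 11.2 FPKM in PRAT, against 2.43, 3.99 and 6.41 FPKM elsewhere (0.84 ± 0.16, adjusted p = 0.00119). Its values in PRAT 1 and PRAT 3, both near 11 FPKM, stood well above all others, and PRAT 4 lay within the range of the other depots. NDUFC2, another accessory subunit of the membrane arm, had 28.5, 80.8 and 96.8 FPKM in PRAT, against 21.8, 41.4 and 83.2 FPKM elsewhere (0.65 ± 0.21, adjusted p = 0.0435, and 0.123 without PRAT 1).

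The 13 members of complex I that did not pass also had positive values, down to 0.19 for NDUFA6 and NDUFB4, both accessory subunits. The core of the matrix arm moved less evenly. NDUFS8, an iron-sulphur subunit close to the ubiquinone site, rose by 0.63 ± 0.10 (adjusted p = 0.000409), with 22.8, 30.2 and 34.3 FPKM in PRAT against 12.6, 18.5 and 28.7 FPKM elsewhere. NDUFS1, the large iron-sulphur subunit, rose by 0.48 ± 0.12 (adjusted p = 0.00822) and NDUFV1, which binds NADH, by 0.42 ± 0.14 (adjusted p = 0.043, and 0.13 without PRAT 1). NDUFS7, an iron-sulphur subunit beside the ubiquinone site, did not pass. NDUFS7 had 27.9, 78.9 and 96.7 FPKM in PRAT, against 22.1, 36.1 and 80.9 FPKM elsewhere (0.64 ± 0.22, adjusted p = 0.0631). Its other 4 PRAT libraries were at 71.3 FPKM or more, whereas PRAT 2 and PRAT 4, the pair with high lymphocyte markers, had 41.5 and 27.9 FPKM. Without the 6 libraries rich in lymphocyte markers it passed, at 0.99 (adjusted p = 0.00244), and with the animal as a term it passed as well (adjusted p = 0.035).

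Complex II, which is also the succinate dehydrogenase of the citrate cycle, was the only complex with every tested member higher. SDHD, which the choice of symbols also covers, had no gene model under its symbol. SDHA, the flavoprotein that oxidizes succinate, had 118, 213 and 275 FPKM in PRAT, against 81.2, 128 and 223 FPKM elsewhere (0.59 ± 0.15, adjusted p = 0.0107). SDHB, its iron-sulphur partner, had 59.1, 92.3 and 129 FPKM, against 38.7, 55.0 and 82.5 FPKM elsewhere (0.70 ± 0.12, adjusted p = 0.000437). The groups overlapped in both, with 3 PRAT libraries above every other library for SDHA and 4 for SDHB. SDHC, a membrane anchor, was much lower at 4.88, 6.19 and 7.02 FPKM in PRAT, against 3.51, 4.73 and 5.85 FPKM elsewhere (0.39 ± 0.08, adjusted p = 0.00359).

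**Figure D2:**
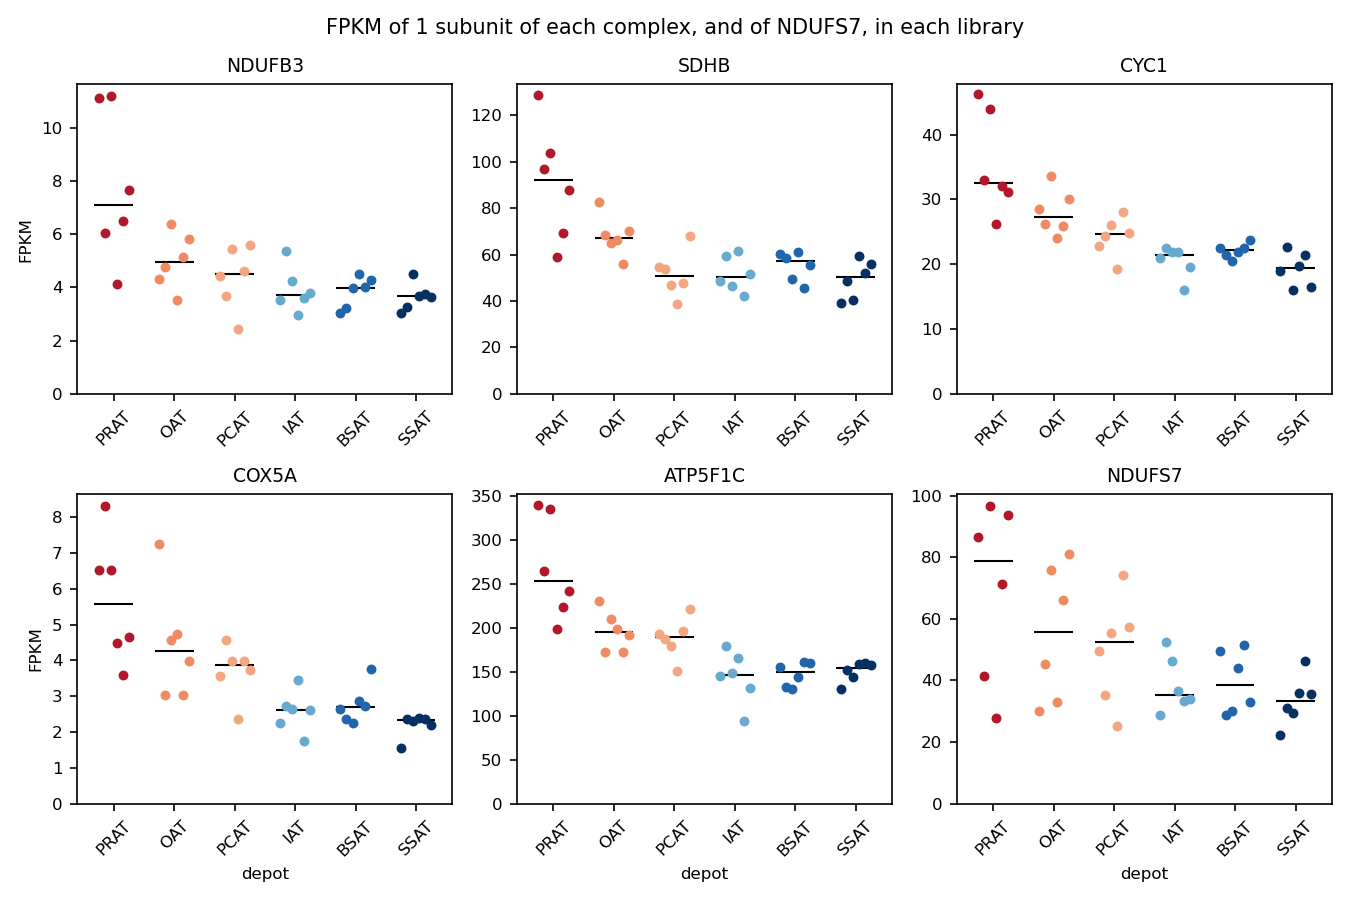
FPKM (y axis, from 0) of NDUFB3, SDHB, CYC1, COX5A, ATP5F1C and NDUFS7 in each of the 6 libraries of each depot, with points in the order of the animals and a line at the median. For NDUFS7 the PRAT libraries of animals 2 and 4, at 41.5 and 27.9 FPKM, lie among those of the other depots.

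In complex III, the redox subunits and UQCRC1 rose and the small subunits did not pass. CYC1, the cytochrome that hands electrons to cytochrome c, had 26.3, 32.6 and 46.2 FPKM in PRAT, against 16.0, 22.5 and 33.7 FPKM elsewhere (0.63 ± 0.09, adjusted p = 0.000149), and PRAT was its highest depot in all 6 animals. UQCRFS1, the Rieske iron-sulphur protein, rose by 0.50 ± 0.10 (adjusted p = 0.00233) and UQCRC1, a core protein, by 0.35 ± 0.10 (adjusted p = 0.0223, and 0.0644 without PRAT 1). The symbol of UQCRFS1 was not checked by its neighbouring genes and is uncertain. UQCRH, the hinge protein, averaged 2.94 ± 0.70 FPKM in PRAT and 2.31 ± 0.40 FPKM elsewhere (SD, n = 6 and 30 libraries, adjusted p = 0.0783 by limma). UQCRQ, a small membrane subunit, averaged 1.21 ± 0.17 and 0.978 ± 0.162 FPKM (adjusted p = 0.0665 by limma) and UQCR11, another, 2.22 ± 0.77 and 1.85 ± 0.66 FPKM (adjusted p = 0.454 by limma), PRAT first in each pair.

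UQCRC2, the partner of UQCRC1 in the core of complex III, had a pair of gene models that behaved differently. The one with the highest average had 72.4, 251 and 723 FPKM in PRAT, against 29.0, 119 and 1944 FPKM elsewhere (0.91 ± 0.50, adjusted p = 0.252). Its 5 highest values were 1944 FPKM in OAT 4, 723 FPKM in PRAT 4, 716 FPKM in PRAT 2, 627 FPKM in OAT 1 and 440 FPKM in IAT 4, all of them libraries with high lymphocyte markers. In the authors' gene order this model lies beside DDX39B, NFKBIL1 and LTA, genes of the major histocompatibility region in mammals. The other model lies between CRYM and PDZD9 and had 34.7, 46.0 and 57.3 FPKM in PRAT, against 19.0, 29.8 and 40.8 FPKM elsewhere (0.65 ± 0.12, adjusted p = 0.00122). Its values did not stand out in OAT 4 (35.4 FPKM) or PRAT 4 (34.7 FPKM). Both models are reported as uncertain, and UQCRC2 is left out of the sums below. The counts of called members and the medians, above and below, keep its model of the highest average.

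**Figure D3:**
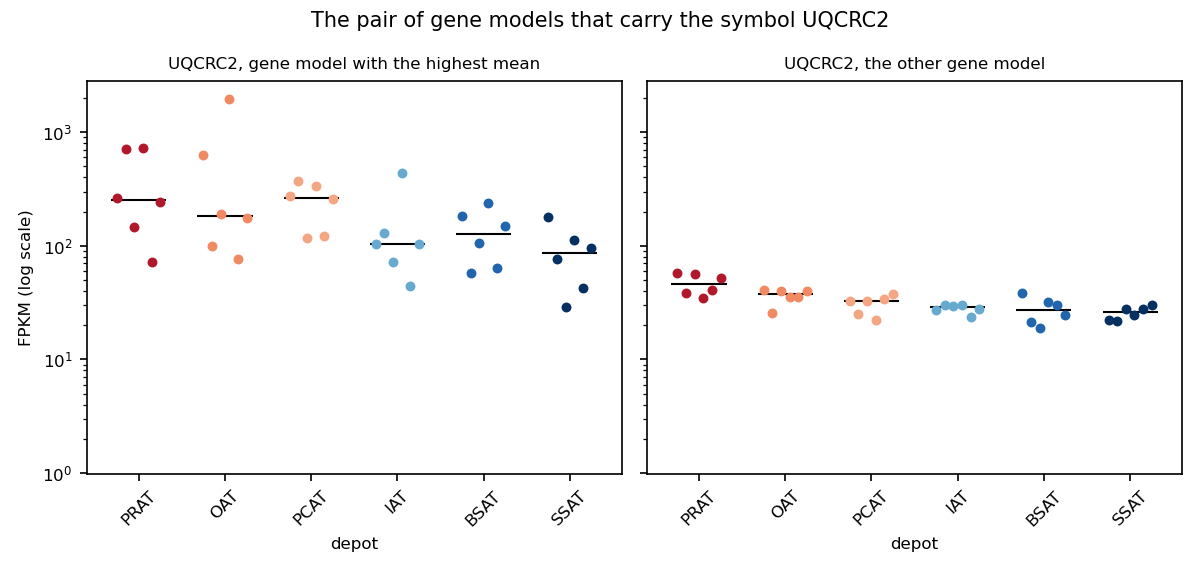
FPKM on a log axis of each of the gene models that carry the symbol UQCRC2, in the 6 libraries of each depot, with a line at the median. The model with the highest average spans 29.0 to 1944 FPKM, and the other spans 19.0 to 57.3 FPKM and is highest in PRAT.

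Complex IV, cytochrome c oxidase, was the most mixed. COX5A, a nuclear-coded subunit on the matrix side, had 3.58, 5.58 and 8.30 FPKM in PRAT, against 1.54, 2.73 and 7.24 FPKM elsewhere (0.86 ± 0.16, adjusted p = 0.000896), and a single library of another depot, OAT 1, reached the upper PRAT values. COX5B, its zinc-binding neighbour, had 16.8, 19.0 and 24.0 FPKM, against 8.45, 13.97 and 20.0 FPKM (0.52 ± 0.12, adjusted p = 0.00398). COX7B, a small transmembrane subunit, had 123, 186 and 258 FPKM, against 79.2, 126 and 228 FPKM (0.48 ± 0.14, adjusted p = 0.0247), but did not pass without PRAT 1 (adjusted p = 0.0681) or without the 6 libraries rich in lymphocyte markers (adjusted p = 0.0741). In human COX7B lies on the X chromosome, whereas this gene model lies beside AOX2 and BZW1, so its symbol is uncertain.

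The tissue isoforms of complex IV did not pass the test in PRAT. COX4I2, the isoform of COX4 known from lung, was the only member with a negative value, at 0.898, 1.98 and 3.00 FPKM in PRAT against 0.589, 2.31 and 4.78 FPKM elsewhere (-0.28 ± 0.22, adjusted p = 0.447). COX6A2, a heart and skeletal muscle isoform, was at or near 0 in most libraries and highest at 2.01 FPKM in BSAT 1, the library with muscle markers (0.27 ± 0.47, adjusted p = 0.746). COX7A1, the muscle isoform that brown fat also uses, had 0.911, 1.10 and 1.75 FPKM in PRAT, against 0.744, 1.04 and 1.40 FPKM elsewhere (0.21 ± 0.11, adjusted p = 0.2). COX7A2, its widely expressed counterpart, had 0.885, 1.40 and 2.23 FPKM, against 0.514, 0.898 and 1.62 FPKM (0.59 ± 0.20, adjusted p = 0.0535, and 0.00429 with the animal as a term).

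The ratio of COX7A1 to COX7A2 was the only isoform pair of 6 with both partners above the filter. The COX7A2 gene model lies on the X chromosome beside IKBKG and LAGE3, whereas human COX7A2 is autosomal, so its symbol and the ratio are uncertain. Its log2 ratio had a PRAT mean of -0.25 ± 0.46 against 0.13 ± 0.42 elsewhere (SD, n = 6 and 30 libraries), a difference of -0.38 with a two-sided exact permutation p of 0.0107 and 0.064 after adjustment over the 6 depots. The other depots differed by -0.30 (OAT) to 0.31 (SSAT) and did not pass either, with adjusted exact p of 0.0718 to 0.635. Without animal 1 the ratio in PRAT passed, at -0.46 (adjusted exact p = 0.00309).

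Complex V, the ATP synthase, rose in 12 of its 13 members. ATP5F1C, the gamma subunit that rotates in the catalytic head, had 199, 253 and 339 FPKM in PRAT, against 94.0, 160 and 230 FPKM elsewhere (0.69 ± 0.10, adjusted p = 0.000139), and 4 PRAT libraries exceeded all others. ATP5F1A, the alpha subunit of the head, had 233, 297 and 346 FPKM, against 108, 186 and 362 FPKM (0.66 ± 0.13, adjusted p = 0.00159), and OAT 1 alone lay above all PRAT libraries. ATP5PB had 267, 335 and 413 FPKM, against 149, 204 and 344 FPKM (0.70 ± 0.11, adjusted p = 0.000224), and was highest in PRAT in all 6 animals. ATP5MF, a membrane subunit, showed the largest rise of the complex at 0.74 ± 0.14 (adjusted p = 0.00157), with 82.7, 104 and 144 FPKM in PRAT against 39.5, 62.6 and 120 FPKM elsewhere. ATP5F1D, the delta subunit of the central stalk, was the only member that did not pass, at 8.69, 11.7 and 16.5 FPKM in PRAT and 5.35, 9.45 and 14.9 FPKM elsewhere (0.30 ± 0.16, adjusted p = 0.237). ATP5IF1, the inhibitor of the synthase, was among the 12 that rose (0.39, adjusted p = 0.0233).

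**Figure D4:**
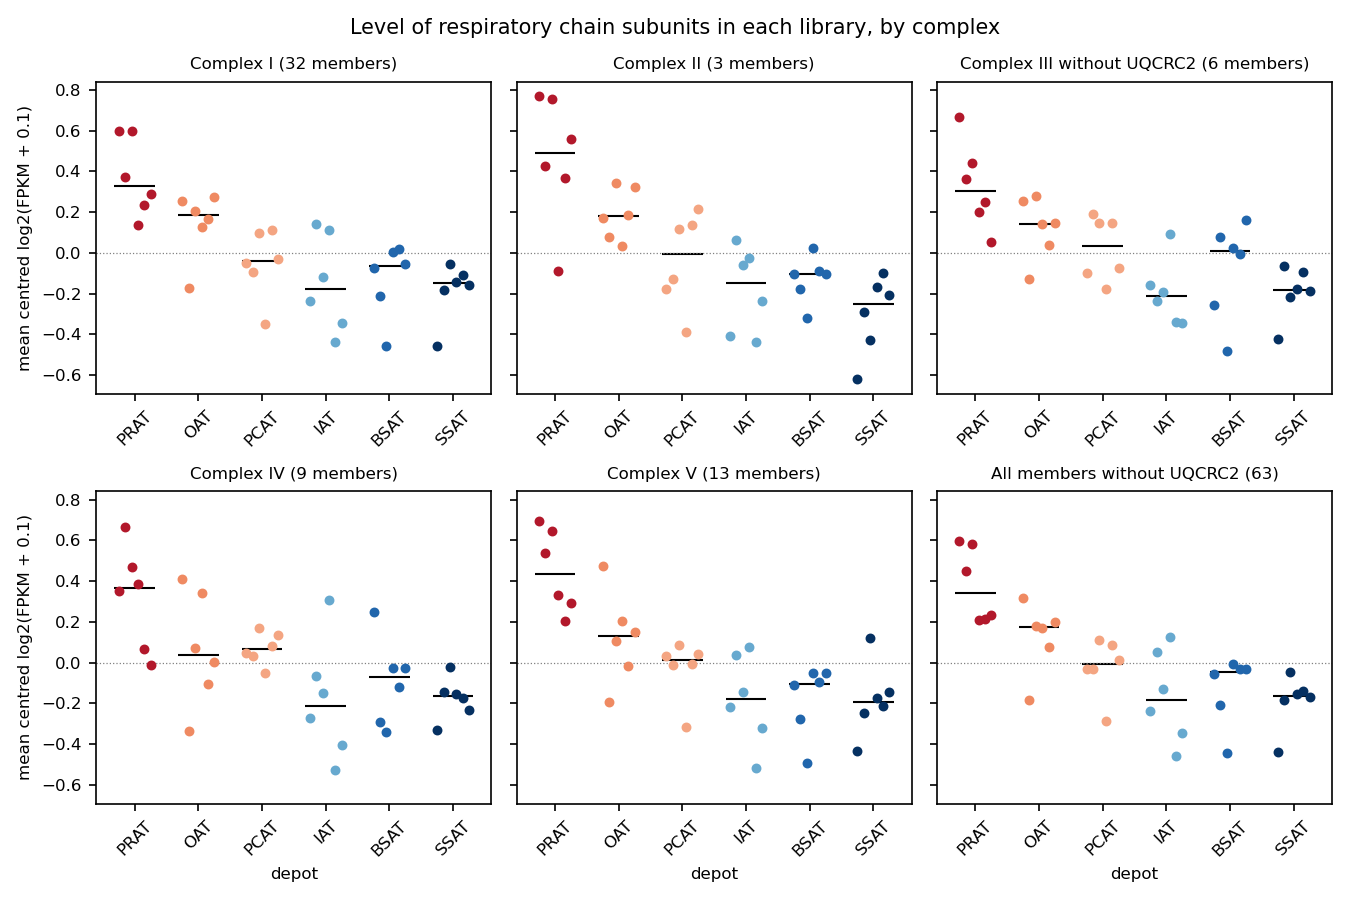
Mean over the tested members of log2(FPKM + 0.1), centred on each gene's mean over the 36 libraries, for each complex and for 63 members without UQCRC2, with a point per library in the order of the animals and a line at the median. In the last panel the PRAT libraries lie between 0.21 and 0.60 and the highest of the other depots, OAT 1, at 0.32.

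Without UQCRC2, the members together took 0.293%, 0.357% and 0.432% (lowest, median and highest) of the summed FPKM in PRAT libraries, against 0.176%, 0.240% and 0.348% in the other 30. Medians were 0.293% in OAT, 0.265% in PCAT, 0.232% in BSAT, 0.230% in SSAT and 0.217% in IAT, and the ranges of neighbouring depots overlapped. The mean log2 level of the 63 members was highest in PRAT in each of the 6 animals. PRAT exceeded the mean of the other 5 depots by 0.56 to 0.69 in the 3 males, which are animals 1 to 3, and by 0.24 to 0.31 in the 3 females.

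Against single depots, the members stood apart from PRAT to different degrees. PRAT was higher than SSAT in 45 members (14.2% of all gene models), than IAT in 35 (4.99%), than BSAT in 34 (9.89%) and than PCAT in 16 (1.51%), and no member was called lower in any of these by limma, with 1 lower at an unadjusted p under 0.05 (COX4I2 against PCAT). The largest called difference in members other than UQCRC2 was COX5A over SSAT at 1.29 ± 0.20 (adjusted p = 6.62e-05). Between PRAT and OAT, 0 members were called by limma, 20 had an unadjusted p under 0.05, or 31.2% against 4.47% of all gene models, and 0.119% of all gene models were called. The median difference of the members there was 0.25, with ATP5F1C at 0.43 ± 0.13 (adjusted p = 0.545), and it remained at 0 calls without PRAT 1, without the 6 libraries rich in lymphocyte markers and with the animal as a term. These comparisons share the PRAT libraries.

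The second comparison set the SATs against the VATs. Of the 64 members, 42 were lower in SATs and 0 higher, while 22.1% of all gene models were lower in SATs. At an unadjusted p under 0.05 limma gave 51 members, all lower in SATs, or 79.7% against 42.4% of all gene models in either direction. The 18 libraries of a class hold 3 of each animal, and with the class means of each animal and the animal as a term the count was 26. All 3 members of complex II fell, with 10 of 13 in complex V, 20 of 32 in complex I, 4 of 7 in complex III and 5 of 9 in complex IV. The median over the members was -0.31, against -0.13 over all gene models, and 29 members were lower in SATs in all 6 animals. COX5A had 1.54, 2.39 and 3.76 FPKM in SATs, against 2.36, 4.25 and 8.30 FPKM in VATs (-0.81 ± 0.13, adjusted p = 2.79e-05), and 12 of 18 VAT libraries exceeded every SAT library. SDHA had 81.2, 118 and 164 FPKM in SATs, against 112, 186 and 275 FPKM in VATs (-0.59 ± 0.12, adjusted p = 0.000312).

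ATP5F1C had 94.0, 150 and 179 FPKM in SATs, against 151, 199 and 339 FPKM in VATs (-0.54 ± 0.09, adjusted p = 4.2e-05), with 14 of 18 VAT libraries above all SAT libraries. CYC1 had 16.0, 21.4 and 23.8 FPKM in SATs, against 19.3, 27.2 and 46.2 FPKM in VATs (-0.48 ± 0.09, adjusted p = 0.000116), with 16 of 18 VAT libraries above all SAT libraries. In complex I, NDUFS7 fell by 0.56 on the log2 scale (adjusted p = 0.0105) and NDUFB3 by 0.49 (adjusted p = 0.00635), and COX5B in complex IV by 0.46 (adjusted p = 0.000619). ATP5F1A fell by 0.53 (adjusted p = 0.00043), SDHB by 0.38 (adjusted p = 0.0107), and the UQCRC2 model of the highest average by 1.33 (adjusted p = 0.00594). COX4I2 was the only member with a positive value (0.27 ± 0.19, adjusted p = 0.27). The fit holds no term for the depot, and PRAT and OAT lie on its VAT side. Quantile normalization left 18 members and median centring 17, and moved the share of calls higher in SATs among all calls to 55.0% and 60.0%, against 26.3%. With the fibroblast score as a covariate, limma called 0 members, with 7 at an unadjusted p under 0.05 and a median of -0.17, while all 6 tested fibroblast markers were higher in SATs. Of the other cell types, 4 of 9 lymphocyte markers and 4 of 7 mesothelial markers were lower in SATs, with sums of 21.3 to 917 FPKM in SATs against 8.93 to 2202 FPKM in VATs for the lymphocyte markers, and of 1.11 to 6.39 FPKM in SATs against 1.26 to 2346 FPKM in VATs for the mesothelial ones. With the lymphocyte score as a covariate 32 members were called, and the part of the mesothelial markers was not tested.

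SSAT, which the study sets apart, was compared with the other 5 depots. It had the lowest mean of the depots for 29 of the 64 members, and the tests that follow are read from the same values. Of these 64, 9 were lower in SSAT and 0 higher, while 5.23% of all gene models were lower, and at an unadjusted p under 0.05 limma gave 27, all lower in SSAT, or 42.2% against 25.7% of all gene models in either direction. Quantile normalization left 4 and median centring 3 and moved the share of higher calls among all calls in SSAT to 70.4% and 71.8%, against 42.7%. COX5A had 1.54, 2.33 and 2.40 FPKM in SSAT, against 1.74, 3.57 and 8.30 FPKM elsewhere (-0.69 ± 0.16, adjusted p = 0.00511), and its 6 SSAT libraries lay at the low end, with only 5 of the other 30 below the highest of them. SDHA had 81.2, 103 and 129 FPKM in SSAT, against 86.5, 138 and 275 FPKM elsewhere (-0.59 ± 0.15, adjusted p = 0.0119). ATP5F1D, which did not pass in PRAT, had 5.75, 7.74 and 8.54 FPKM in SSAT, against 5.35, 10.6 and 16.5 FPKM elsewhere (-0.52 ± 0.16, adjusted p = 0.0376).

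CYC1 was lower in SSAT by 0.41 ± 0.09 (adjusted p = 0.00526) and COX5B by 0.43 ± 0.12 (adjusted p = 0.0182). In complex I, NDUFB2, an accessory subunit of the membrane arm, was lower by 0.45 ± 0.12 (adjusted p = 0.0145) and NDUFS8 by 0.38 ± 0.10 (adjusted p = 0.0222), and in complex V ATP5MK, a small membrane subunit, by 0.28 ± 0.09 (adjusted p = 0.0442). NDUFC1, averaging under 1 FPKM, was the ninth. The count was 3 without SSAT 1 and 4 without SSAT 6, and with the fibroblast score as a covariate limma called 0, with 10 at an unadjusted p under 0.05.

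**Figure D5:**
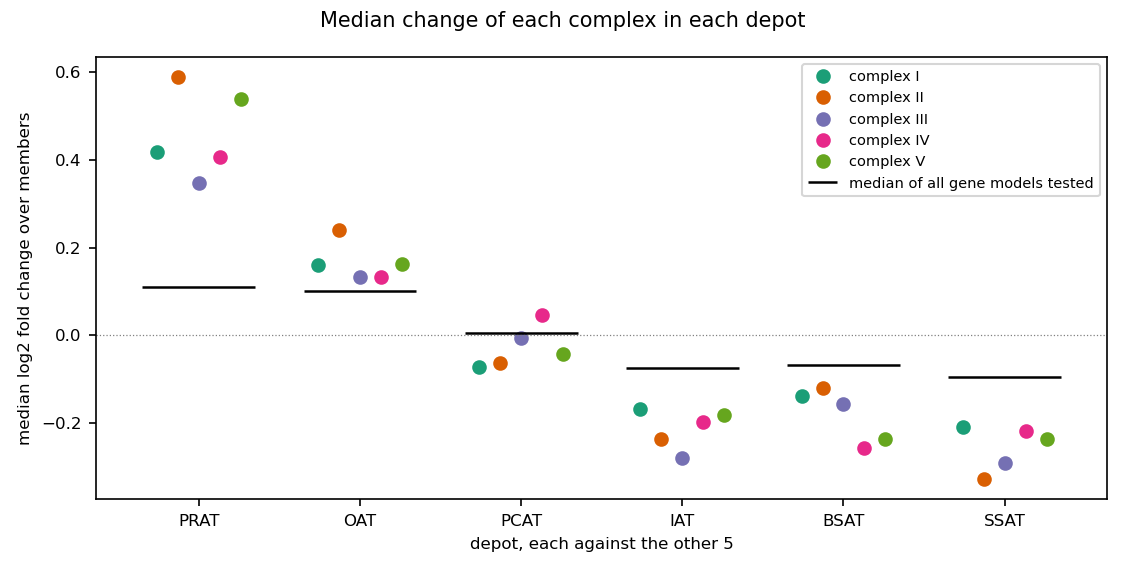
Median log2 fold change of the members of each complex in each depot against the other 5 (y axis), with the median of all 17688 gene models as a black line. PRAT lies at 0.35 to 0.59 for the 5 complexes, above its line at 0.11, and the other depots lie between -0.33 and 0.24.

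No member was called by limma in the remaining depots against the other 5. At an unadjusted p under 0.05 there were 14 members in OAT, or 21.9% against 19.3% of all gene models, and 13 in BSAT, or 20.3% against 17.2%, both near the share of all gene models. There were 3 in PCAT, or 4.69% against 15.1%, and 19 in IAT, or 29.7% against 8.31%. The share of all gene models called at an adjusted p under 0.05 was 0.78% in OAT, 2.01% in BSAT, 4.26% in PCAT and 0.181% in IAT. The median of the members was 0.16 in OAT, -0.04 in PCAT, -0.19 in IAT and -0.18 in BSAT, and 63 of 64 members had a negative value in IAT. These 4 counts stayed at 0 after quantile normalization, without the 6 libraries rich in lymphocyte markers and with the animal as a term.

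Sex was compared after averaging the 6 depots of an animal. No member and 0% of all gene models were called by limma, and the median difference of the members was 0.05. At an unadjusted p under 0.05 there were 1 member, or 1.56%, and 478 gene models, or 2.7% of all. The difference between PRAT and the other depots was then compared between males and females. No member passed, again with 0% of all gene models called, while 62 of 64 members had a positive value, with a median of 0.36 against 0.10 over all gene models. At an unadjusted p under 0.05 there were 13 members, or 20.3%, and 261 gene models, or 1.48% of all. The smallest p among the members was that of SDHB (0.64 ± 0.20, unadjusted p = 0.00404 in limma, adjusted p = 1), named after its value was seen. PRAT 1, with its kidney markers, and PRAT 2, rich in lymphocyte markers, are among the males. PRAT 4, also rich in lymphocyte markers and with adipocyte markers at 501 FPKM, is among the females.

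Genes that build or serve the chain were read from lists outside the rule, against the 7.6% of all gene models that were higher in PRAT and the 22.1% that were lower in SATs. Of 41 assembly factors tested, 18 were higher and 1 lower in PRAT, with a median of 0.32, and 0 were higher and 17 lower in SATs. LRPPRC, which stabilizes the mitochondrial mRNAs that code for complex IV subunits, had 217, 275 and 339 FPKM in PRAT, against 135, 176 and 302 FPKM elsewhere (0.63 ± 0.09, adjusted p = 0.000149). UQCC2, a factor for complex III, rose by 0.76 ± 0.14 (adjusted p = 0.00128). NDUFAF4, a factor for complex I, was the 1 that fell, with 0.565, 1.36 and 2.49 FPKM in PRAT against 1.08, 2.38 and 4.80 FPKM elsewhere (-0.78 ± 0.22, adjusted p = 0.0209).

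Of 16 carriers of electrons and enzymes of ubiquinone synthesis, 4 were higher in PRAT and 0 lower, among them CYCS, cytochrome c itself (0.54 ± 0.15, adjusted p = 0.02), and COQ7, COQ6 and COQ5 of the ubiquinone pathway, and 10 were lower in SATs. Of 14 regulators of mitochondrial transcription and DNA, 3 were higher in PRAT, namely ESRRA, a nuclear receptor that activates mitochondrial genes (0.71 ± 0.15, adjusted p = 0.00372), TFB2M and POLRMT, of which the last is the mitochondrial RNA polymerase. Of 8 genes for the use of the gradient, 1 was called higher, a share near that of all gene models. It was VDAC2, a channel of the outer membrane (0.61 ± 0.10, adjusted p = 0.000409). The median over the 8 was 0.44, against 0.11 over all gene models. At an unadjusted p under 0.05 in limma, 5 of the 8 were higher and 0 lower. UCP1 did not pass, with 0, 0.0401 and 2.68 FPKM in PRAT against 0, 0.0247 and 1.66 FPKM elsewhere (0.42 ± 0.49, adjusted p = 0.608), and 0 of 5 tested thermogenic markers were called in PRAT by limma, with 1 at an unadjusted p under 0.05. In SATs 2 of the 5 were called lower by limma, TMEM26, a marker of beige fat in mouse (-0.88 ± 0.32, adjusted p = 0.0327), and UCP1. UCP1 had 0, 0.00851 and 0.153 FPKM in SATs, against 0, 0.168 and 2.68 FPKM in VATs (-1.33 ± 0.36, adjusted p = 0.00563). It passed the filter only through its VAT values, and its SAT median lies below the added 0.1 FPKM. The call of UCP1 is therefore not read as support for a difference. MT-ND5, a complex I subunit coded by mitochondrial DNA, had 28.4, 44.3 and 104 FPKM in PRAT, against 22.0, 47.2 and 127 FPKM elsewhere (0.01 ± 0.23, adjusted p = 0.988). It was the only listed gene of mitochondrial DNA in the table. Its symbol was not checked, so it does not speak for the other subunits coded there. None of the 12 adipocyte markers tested were called by limma in PRAT or passed an unadjusted p of 0.05, with a median of 0.26 against 0.11 over all gene models and a summed level of 501, 12391 and 19035 FPKM in PRAT against 481, 5977 and 14787 FPKM elsewhere.

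The order of genes along the authors' assembly was used to check the symbols. For 47 members the symbol is also in the RefSeq table, and 45 of them shared a named neighbour with it within 25 genes on each side. NDUFC1 and ATP5MG, a membrane subunit of the ATP synthase, shared none and are uncertain. No such check was made for all 7 members of complex III, all 11 of complex IV and NDUFB1. Among these, UQCR11 lies beside TAC3 and RDH16, which in human are on another chromosome than UQCR11, and is uncertain. UQCRFS1 lies before VAC14 and ST3GAL2, with no named gene on its other side, and COX8A lies between TMEM251 and UBR7. Both are uncertain as well, and the other unchecked symbols are not thereby borne out. For 9 members the symbol had another gene model, and summing the models left 42 members higher in PRAT.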

How the data were processed

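The deposited table holds FPKM values that the authors computed with HISAT2 2.2.1 and StringTie 2.1.4 (submitters' processing notes) on their own river buffalo assembly, with Fastp filtering per the study's methods. The labels name a TruSeq RNA kit, whereas the methods describe removal of ribosomal RNA. Read counts were not used here, so no interval for counting error can be given. Values were taken as log2(FPKM + 0.1), so fold changes of low genes are understated, and the 17688 gene models averaging above 0.1 FPKM were tested with limma 3.58.1 in R 4.3.3 with a trend in the variance. Adjusted p is Benjamini-Hochberg over all of them. Animals were not a term of these fits. Libraries of 1 animal, paired by the labels, correlated at 0.217 in their deviations from depot means, against -0.0387 between animals. The isoform ratio was tested over 46656 assignments within animals. Scripts were tested on simulated data.

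The members, lists and tests were chosen with earlier results of these data known. Named are, per complex, the 3 largest rises in PRAT and the 2 largest changes in SATs and SSAT past the threshold with a mean of at least 1 FPKM, the members of complexes II to V that did not pass in PRAT, the catalytic core, the tissue isoforms and up to 4 genes of each list. Of the catalytic core, COX4I1 and ATP5F1B, the beta subunit of the ATP synthase, had no gene model under their symbols. The values of 1 member are not reported here.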

Additional observations from a re-analysis of the deposited data

Results flagged for a closer look

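Groups of 6 libraries were searched for a library far from the others in the mean centred log2 level of each complex and of all members and in the share of FPKM. Of the 54 groups tested, 6 held one. Chance flags about 1 in 20 independent groups. These groups share libraries and members, so the 6 flags are not read against that rate. For complex I, SSAT 1 lay at -0.457, below the other SSAT libraries, and OAT 2 at -0.171, below the other OAT libraries. For complex III, PCAT 2 lay at 0.337, above the other PCAT libraries. It is a library rich in lymphocyte markers, and without UQCRC2 it did not stand apart. For complex V, PCAT 4 lay at -0.317, below the other PCAT libraries, and it held adipocyte markers at 1089 FPKM, against 4978 to 14787 FPKM in the other PCAT libraries. In PCAT 4 the mesothelial markers summed to 2346 FPKM, against 4.74 to 1610 FPKM in the others of its depot. Over all members without UQCRC2, SSAT 1 lay at -0.440 and PCAT 4 at -0.286, each below the others of its depot.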

How the results depend on the processing

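No alternative called a member in the opposite direction. The number of members higher in PRAT was 42 and fell to 21 after quantile normalization, 21 after median centring, 23 without PRAT 1 and the 6 lymphoid-rich libraries, and 0 with the fibroblast score as a covariate. It was 21 to 44 when each animal or each library was left out in turn. With the replicate block (the animal as a fixed term) it was 47, and 30 with PRAT 1 left out as well. It was 47 with the adipocyte score as a covariate, 41 with the lymphocyte score and 38 without the lymphoid-rich libraries. The number called between SATs and VATs was 42 and fell to 18 after quantile normalization, 17 after median centring and 0 with the fibroblast score. It was 45 with the replicate block, 26 with the block on class means of each animal, and 28 to 48 with an animal or library left out. With the adipocyte score it was 47, with the lymphocyte score 32 and without the lymphoid-rich libraries 37. Scaling each library to the same summed FPKM gave 51. In SSAT the 9 became 4 after quantile normalization, 3 after median centring and 0 with the fibroblast score, 14 without the lymphoid-rich libraries, 19 with the adipocyte score and 12 with the block, and 1 to 12 with an animal or library left out. The number of depots in which the isoform ratio passed was 0, and 0 to 1 with an animal left out. The value of COX6A2 in PRAT turned to -0.31 without the lymphoid-rich libraries, -0.27 without these and PRAT 1, -0.043 with the lymphocyte score and -0.17 without animal 2 (-0.17 to 0.56 with an animal left out), and that of COX4I2 to 0.058 without PRAT 1 and the lymphoid-rich libraries. The causes were not tested. The alternatives with single libraries left out, the fibroblast score, PRAT 1 with the lymphoid-rich libraries, the block without PRAT 1, and all those for the remaining depots were chosen after seeing the data. Read depth was not used, so it is not said which members under 1 FPKM could have been called.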
